A study of Mus musculus with 12 samples.

Results

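The LPS response that remained in mesenchymal cells without MyD88 was measured in 6 of the 12 libraries of the series, 3 of untreated MyD88 knockout (MyD88ko) cells and 3 of MyD88ko cells given lipopolysaccharide (LPS). The samples were chosen by their labels of genotype and treatment, and no measured value chose them. The MyD88ko cells carried the genotype ColVIcre-MyD88F/F-RosamTmG on a C57/Bl6 background. ColVIcre is a Cre recombinase driven by collagen VI regulatory sequence, used to delete floxed genes in mesenchymal cells, and RosamTmG is a reporter that turns from a red to a green membrane protein where Cre has acted. The cells were primary cells of the small intestine at passage 3, sorted for GFP, starved of serum overnight and then left untreated or given 2 µg/ml of LPS from E. coli for 6 hours. The wild-type (wt) cells used for comparison, 3 untreated and 3 with the same LPS, have the label MyD88F/F-RosamTmG, which names no Cre, although the series' design text gives the wild type a ColVIcre. The labels do not say whether the numbered replicates came from separate animals, so each p-value measures the spread between these libraries, which may be technical. In both genotypes the untreated libraries carry lower library codes than the LPS libraries, and an effect of LPS and one of the library series cannot be told apart.

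LPS, the outer-membrane glycolipid of Gram-negative bacteria, is sensed by TLR4 with its partners MD-2 (Ly96) and CD14. At the cell surface TLR4 signals through the adaptor MyD88, which activates NF-κB and MAP kinases. From endosomes it signals through the adaptor TRIF (Ticam1), which activates IRF3, type I interferon and a later wave of NF-κB. Intestinal mesenchymal cells, the fibroblasts and myofibroblasts under the epithelium, are known as a source of chemokines that draw neutrophils and monocytes into the mucosa. The comparison asks which genes LPS still moved when MyD88 was deleted.

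Each read of these 3′ mRNA libraries comes from the end of a transcript, and the values below are the authors' normalized counts per gene. About 3.56 to 5.06 megareads were counted per untreated library and 4.05 to 5.30 per LPS library. These are estimates from the whole numbers that scaling and rounding skip or fill more often. Mesenchymal markers summed to 90664 to 112519 untreated and 133304 to 143183 with LPS, with 18 of 20 listed. Macrophage markers summed to 49 to 61 untreated and 40 to 47 with LPS, with 8 of 15 listed, and the leukocyte gene Ptprc and the macrophage genes Adgre1 and C1qa were not listed. Epithelial markers summed to 9 to 13 untreated and 14 to 36 with LPS, with 11 of 21 listed and without Vil1 and Krt8. Myd88 stood at 14, 8 and 10 in the untreated libraries and at 24, 22 and 5 with LPS, below each of the 6 wt libraries, which ranged from 98 to 213. The labels do not give the exons removed, so the 3′ reads of Myd88 may lie outside the deleted part. The source of the remaining reads was not tested, and these values do not show that every cell had lost MyD88. LPS replicate 3 stood apart. It correlated with the other LPS libraries at r = 0.921 and 0.932 across genes, which are not independent replicates, against 0.953 between those, and 245 genes lay more than 2-fold above the other 5 libraries in it, against 23 to 78 in each of the others.

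LPS changed 741 of 12385 tested genes in MyD88ko cells, 5.98% of those tested, at a limma adjusted p under 0.05. Of these, 320 were higher with LPS (2.58% of genes tested) and 421 lower (3.40%). Among protein-coding calls that averaged 20 or more in the higher group and whose groups did not overlap, the 4 with the highest change were the chemokines Cxcl5, Cxcl1, Ccl2 and Cxcl10. The lowest changes in the same set were those of Serpina3k and Apoa2, genes known from hepatocytes, and 43 cytosolic ribosomal protein genes such as Rpsa and Rplp0 fell. The plot of change against level shows both patterns. Without LPS replicate 3, the library that stood apart, 652 genes were called (289 higher, 363 lower), of which 507 were among the 741. The count depended more on the untreated libraries, with 434 genes called without untreated replicate 1, 337 without replicate 2 and 382 without replicate 3. Of the 741 genes, 246 (98 higher, 148 lower) were called whichever of the 6 libraries was left out.

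**Figure D1:**
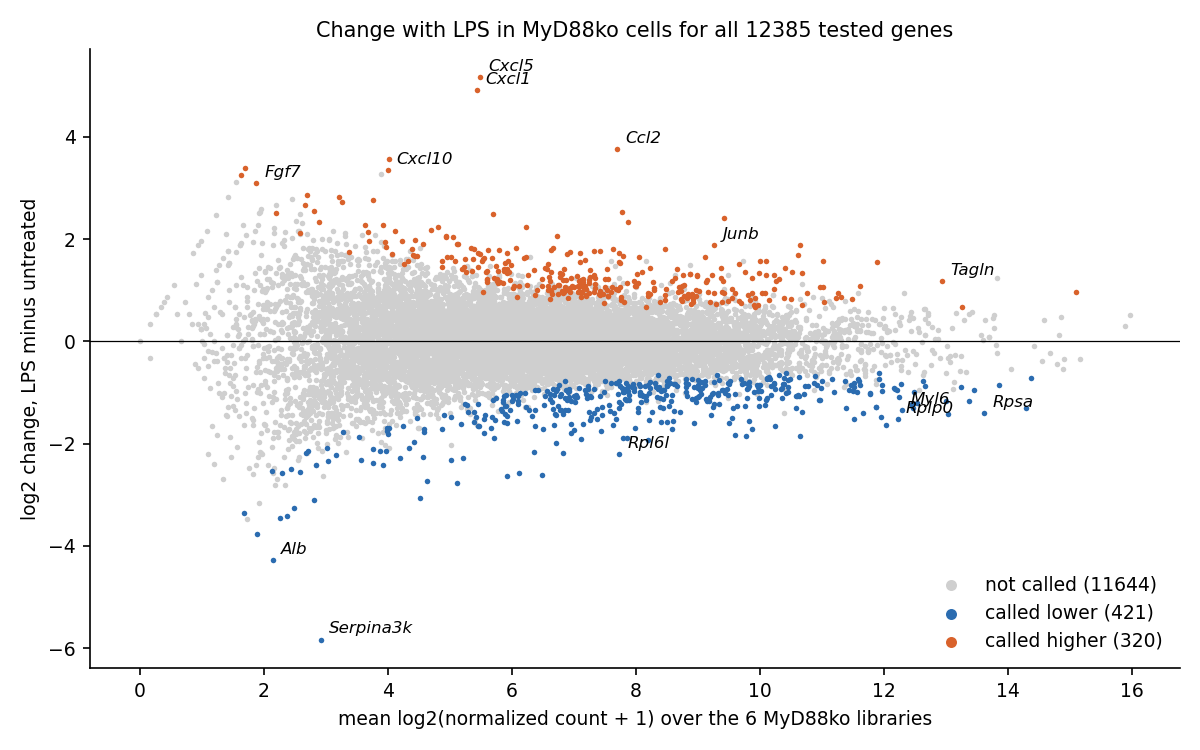
Change with LPS in MyD88ko cells (y axis, difference of mean log2(normalized count + 1), LPS minus untreated) against the mean log2 level over the 6 libraries (x axis), 1 point per tested gene, with called genes in colour. Chemokines stand at the top at middle levels, and ribosomal genes such as Rpsa and Rplp0 lie among the abundant genes called lower.

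The promoters of 5 genes that rose and of Il6 are shown to compare the NF-κB decamers before their starts. RefSeq promoter windows (build GRCm38.p6, from 250 bases before to 50 after the start) were found for 8923 of the tested genes, among them 6 of the 9 chemokine genes called higher, while Cxcl5, Ccl2 and Ccl7 were not in that table. NF-κB binds decamers, searched here on both strands as GGGNN followed by TTTCC and as GGGANN followed by TTCC, forms that overlap each other. A match to either was in 4 of the 6 windows of chemokines called higher and in 5 of the 9 of all tested chemokines. Among all genes called higher it was in 10 of 165 windows (6.06%), and among those called lower in 14 of 305 (4.59%). Over all 8923 it was in 288 (3.23%). Other motifs were searched too. The AP-1 motif was in 4.85% of windows called higher and 6.07% of all, and the C/EBP motif in 7.88% and 9.87%. The interferon-stimulated response element was in 4.24% and 3.71%, and the TATA box in 9.70% and 8.37%. The next lines give the 170 bases before the start, 5′ to 3′ on the gene's strand, for Cxcl1 (chr5:90891075-90891244, plus strand), Cxcl2 (chr5:90903729-90903898, plus), Ccl20 (chr1:83116596-83116765, plus), Cxcl10 (chr5:92348890-92349059, minus), Nfkbia (chr12:55492648-55492817, minus) and Il6 (chr5:30012944-30013113, plus). The first 5 were called higher, and the 4 chemokines among them are the called ones whose window held a match. Called chemokines without a match are not shown. Il6 is shown because it holds a match to the same patterns, with other letters, and was not called. Capitals mark matches.
Cxcl1: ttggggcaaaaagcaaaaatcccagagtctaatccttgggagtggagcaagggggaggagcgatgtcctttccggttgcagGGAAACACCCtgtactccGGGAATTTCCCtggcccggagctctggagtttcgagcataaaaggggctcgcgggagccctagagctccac
Cxcl2: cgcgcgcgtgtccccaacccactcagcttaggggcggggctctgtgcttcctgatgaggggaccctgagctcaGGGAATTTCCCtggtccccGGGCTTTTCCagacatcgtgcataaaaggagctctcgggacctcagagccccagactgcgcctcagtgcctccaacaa
Ccl20: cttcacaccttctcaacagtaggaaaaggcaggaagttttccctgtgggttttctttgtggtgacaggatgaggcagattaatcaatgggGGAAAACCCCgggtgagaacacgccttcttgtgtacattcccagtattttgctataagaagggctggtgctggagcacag
Cxcl10: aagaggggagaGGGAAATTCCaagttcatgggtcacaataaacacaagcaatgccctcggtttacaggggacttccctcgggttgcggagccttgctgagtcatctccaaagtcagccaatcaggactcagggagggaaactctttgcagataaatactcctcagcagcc
Nfkbia: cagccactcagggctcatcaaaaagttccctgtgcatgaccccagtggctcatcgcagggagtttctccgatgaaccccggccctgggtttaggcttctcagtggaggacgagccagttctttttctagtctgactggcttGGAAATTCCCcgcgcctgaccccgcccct
Il6: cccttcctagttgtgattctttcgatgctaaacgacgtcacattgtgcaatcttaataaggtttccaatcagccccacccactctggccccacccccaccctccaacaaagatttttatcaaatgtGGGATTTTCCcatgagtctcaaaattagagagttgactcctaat
Cxcl1 held a reverse-strand match at -89 to -80 and a pair of overlapping matches from -71 to -61, counted from the start. Cxcl2 held overlapping matches from -97 to -87 and another at -78 to -69. The match of Cxcl10 lay at -159 to -150, that of Nfkbia at -29 to -20 and that of Il6 at -44 to -35. A match is a description of letters and says nothing about binding in these cells.

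Of 15 tested chemokine genes, 9 were called higher and 0 lower, where 2.58% and 3.40% of all genes were, and the list's median log2 change was 1.71 against 0.004 for all genes. The list was written with earlier results of these data known, so its direction is not independent evidence. Without LPS replicate 3, 6 of the 15 were called, the lowest count over the 6 fits that each left out 1 library. In the fit of the 6 MyD88ko libraries alone, 12 chemokine genes were tested and 6 were called higher. With voom weights and with limma without the trend, 7 of the 15 were called higher.

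Cxcl5 (mm10 chr5:90759360-90761624), a neutrophil attractant, read 3, 7 and 12 untreated and 192, 354 and 279 with LPS. The groups were far apart, and the change was 5.16 ± 0.43 on the log2 scale (SE, n = 3 and 3, limma adjusted p = 2.3e-05). Cxcl1 (chr5:90891241-90893115), which draws neutrophils through the same receptor CXCR2, read 14, 2 and 10 untreated and 184, 280 and 258 with LPS. It rose by 4.91 ± 0.55 (limma adjusted p = 0.00029). Ccl2 (chr11:82035571-82037453), the main monocyte attractant, read 118, 43 and 33 untreated and 660, 1046 and 636 with LPS, a log2 change of 3.76 ± 0.41 (limma adjusted p = 0.00017). Its neighbour Ccl7, another monocyte attractant, read 86, 69 and 45 and then 200, 269 and 179, a log2 change of 1.71 ± 0.26 (limma adjusted p = 0.00053). In each of these 4 genes the lowest LPS library lay above the highest untreated one, as in 12.2% of all tested genes. The rule for the highest changes, which Cxcl5, Cxcl1 and Ccl2 met, required this. Each of the 4 was called whichever library was left out.

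Cxcl10 (chr5:92346638-92348889), an attractant of T cells that interferon and NF-κB induce, read 6, 2 and 5 untreated and 85, 67 and 22 with LPS. It rose by 3.35 ± 0.51 (limma adjusted p = 0.00053), and LPS replicate 3 held the lowest of the LPS values. The remaining 4 called chemokines are named because they complete the count, after their values were seen. Ccl20, a ligand of CCR6, was listed at 0 in every untreated library and read 13, 6 and 8 with LPS. Its mean stayed below 10 in both MyD88ko groups, so it was tested only through the wt libraries. Cxcl2, another CXCR2 ligand, was also listed at 0 untreated and read 3, 5 and 47 with LPS, so its level came mostly from LPS replicate 3. Ccl8 read 6, 0 and 0 and then 6, 12 and 13, which touch at 6. Cx3cl1 read 29, 19 and 30 and then 68, 63 and 87, with no overlap. The other 6 tested chemokines were not called, among them Cxcl12, a homeostatic chemokine of fibroblasts, at 1957, 1006 and 794 untreated and 1297, 674 and 509 with LPS.

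**Figure D2:**
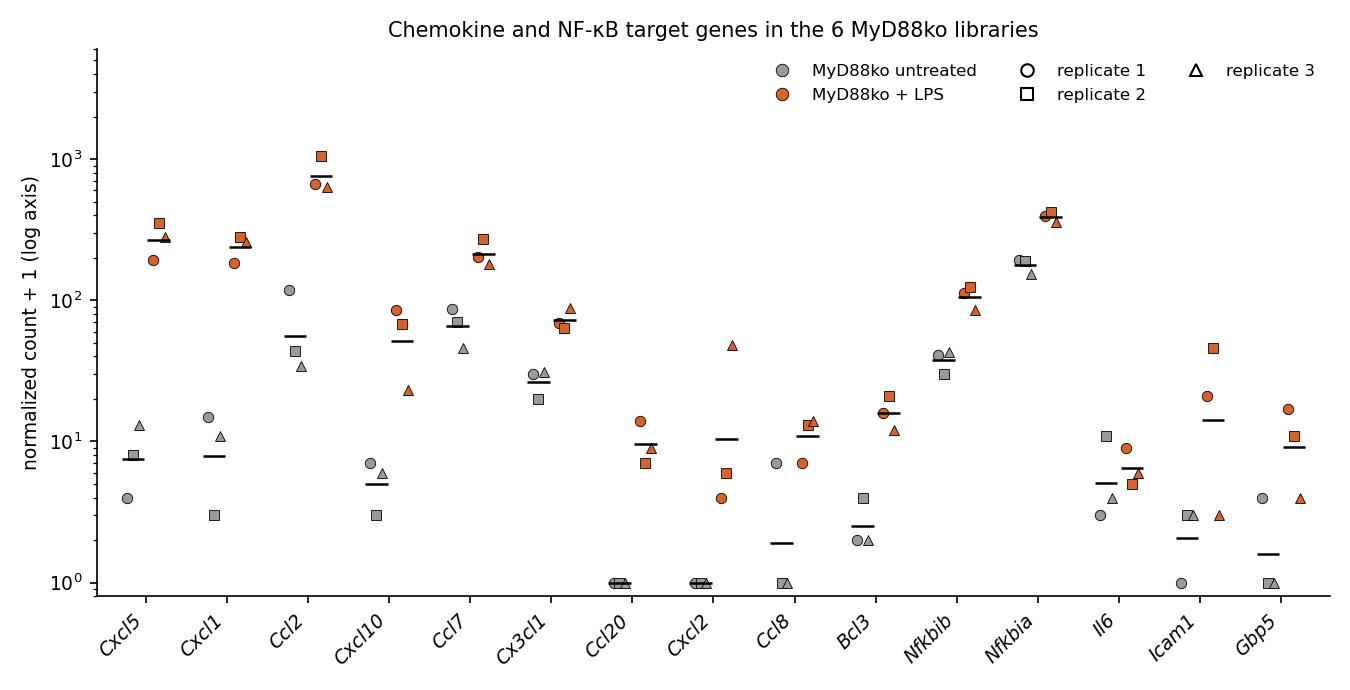
Normalized count + 1 (log axis) of chemokine and NF-κB target genes in the 6 MyD88ko libraries, with grey untreated, orange LPS, a shape per replicate and a bar at each group's geometric mean. Cxcl5, Cxcl1, Ccl2 and Ccl7 are separated in every library, whereas Il6 overlaps between groups and Icam1 and Gbp5 are low in LPS replicate 3.

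Inhibitors and targets of NF-κB rose in part. Of 16 tested, 3 were called higher (18.8%, against 2.58% of all genes) and 0 lower, and the median log2 change was 0.87. Nfkbia, which encodes the inhibitor IκBα and is itself an NF-κB target, read 192, 188 and 152 untreated and 393, 420 and 355 with LPS. It rose by 1.13 ± 0.24 (limma adjusted p = 0.0072). Bcl3, an IκB protein that acts in the nucleus, read 1, 3 and 1 and then 15, 20 and 11, a log2 change of 2.66 ± 0.54 (limma adjusted p = 0.0056). Nfkbib, which encodes IκBβ, read 40, 29 and 42 and then 112, 123 and 84, a log2 change of 1.50 ± 0.32 (limma adjusted p = 0.0073). The LPS libraries lay above the untreated ones in these 3 genes, as in 12.2% of all tested genes, and each stayed called with any library left out. Zc3h12a, a ribonuclease that degrades cytokine messages, read 12, 7 and 13 and then 24, 31 and 18, and was not called (limma adjusted p = 0.095). Of 10 tested NF-κB subunits and kinases, 0 were called in either direction. Nfkb2 came closest, at 48, 58 and 36 untreated and 70, 79 and 118 with LPS (limma adjusted p = 0.078).

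The receptor and both signalling arms showed 0 calls. This held for 18 tested genes of the TLR4 receptor and MyD88 arm, with a median log2 change of 0.16, and for 12 tested genes of the TRIF arm, with a median of 0.22. Tlr4 read 131, 107 and 113 untreated and 144, 95 and 40 with LPS, with the lowest value in LPS replicate 3. Ly96, the TLR4 partner, read 10, 8 and 3 and then 29, 21 and 16, without overlap, as in 12.2% of all tested genes, but not called (log2 1.61 ± 0.50, limma adjusted p = 0.063). Cd14 stayed at 9 or below in the 6 libraries. Ticam1, the gene of TRIF, read 41, 41 and 59 and then 53, 58 and 68, which overlap. Tbk1, the kinase that activates IRF3, read 20, 29 and 19 and then 24, 43 and 79 (limma adjusted p = 0.18). Ifnb1 was not listed in the tables.

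Interferon-stimulated genes gave 3 calls higher and 0 lower of 48 tested, 6.25% against 2.58% of all genes, with a median log2 change of 0.24. Without LPS replicate 3 the count was 4, and it was 0 without untreated replicate 3, 1 without untreated replicate 2 and 1 without LPS replicate 1. Tap2, a subunit of the peptide transporter of antigen presentation, read 130, 174 and 114 untreated and 329, 281 and 210 with LPS (log2 0.97 ± 0.25, limma adjusted p = 0.023). Irf1, a transcription factor, read 111, 93 and 103 and then 206, 141 and 227 (log2 0.87 ± 0.25, limma adjusted p = 0.039). Ifitm3, an antiviral membrane protein, read 1864, 1886 and 1852 and then 2914, 2692 and 5051 (log2 0.87 ± 0.23, limma adjusted p = 0.030). These 3 genes were called in 1 or 2 of the 6 fits that left out a library. The LPS replicates differed widely in a member that was not called. Isg15, a ubiquitin-like protein named after its values were seen, read 333, 163 and 223 untreated and 1210, 425 and 238 with LPS, and was not called (limma adjusted p = 0.18). Gbp5, a guanylate-binding protein, read 3, 0 and 0 and then 16, 10 and 3 (limma adjusted p = 0.069).

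Secreted cytokines gave 2 calls of 13 tested, both higher (15.4%, against 2.58% of all genes). The count was 0 with any LPS library left out and without untreated replicates 1 and 3, and 1 without untreated replicate 2. Tnfsf13b, which encodes the B cell survival factor BAFF, read 3, 8 and 4 untreated and 20, 15 and 19 with LPS (log2 1.74 ± 0.48, limma adjusted p = 0.034). Il10 read 8, 1 and 9 and then 22, 34 and 24 (log2 2.27 ± 0.66, limma adjusted p = 0.048). Il6, the cytokine usually taken as the readout of LPS, read 2, 10 and 3 untreated and 8, 4 and 5 with LPS. These overlap, and the log2 change was 0.34, with a 95% interval from -0.90 to 1.59 (limma adjusted p = 0.79). Tnf was not listed. Ptgs2, the inducible cyclooxygenase, read 271, 141 and 161 and then 387, 144 and 164, and 0 of 11 tested genes of prostaglandin metabolism were called. The acute-phase list gave 0 calls of 12, although Saa3 read 0, 5 and 17 and then 23, 48 and 82 (limma adjusted p = 0.080). In the fit of the 6 MyD88ko libraries alone, 5 of the list were tested and 1 was called higher. The rest of the 12 reached the minimum mean only in wt cells. Of 13 adhesion and costimulation genes, 1 was called higher (7.69%, against 2.58% of all genes), Vcam1, which binds leukocyte integrins. It read 224, 309 and 245 and then 485, 612 and 378 (log2 0.91 ± 0.25, limma adjusted p = 0.032), and was called in 1 of the 6 fits that left out a library. Icam1 read 0, 2 and 2 and then 20, 45 and 2, where the low value was again LPS replicate 3 (limma adjusted p = 0.073).

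Transcription factors of the early response were mixed. Of 30 tested immediate early and AP-1 genes, 3 were called higher (10%, against 2.58% of all genes) and 1 lower (3.33%, against 3.40%). Junb, a subunit of AP-1, read 319, 322 and 313 untreated and 1009, 732 and 2231 with LPS, a rise of 1.89 ± 0.30 (limma adjusted p = 0.0011). Jun read 315, 229 and 226 and then 530, 470 and 333 (limma adjusted p = 0.048), and Ctgf, a matricellular protein, 26871, 22469 and 26201 and then 67641, 41725 and 41997 (limma adjusted p = 0.016). Fosl2, another AP-1 subunit, fell from 1601, 1716 and 1494 to 997, 967 and 744 (log2 -0.84 ± 0.20, limma adjusted p = 0.016). Cebpb, a factor that acts with NF-κB on cytokine genes, read 80, 79 and 84 and then 142, 210 and 134 (log2 0.96 ± 0.24, limma adjusted p = 0.020). Among 24 MAP kinase and feedback genes, 2 were higher (8.33%) and 3 lower (12.5%). The kinase Map2k3 fell from 1520, 1458 and 1667 to 456, 614 and 525 (log2 -1.55 ± 0.26, limma adjusted p = 0.0011), and the phosphatase Dusp5 from 113, 67 and 64 to 33, 29 and 20 (limma adjusted p = 0.012). Dusp1, a phosphatase that shuts off p38 and JNK, fell from 386, 494 and 318 to 184, 245 and 223 (limma adjusted p = 0.020). Spry2, a brake on growth factor receptors, rose from 299, 310 and 353 to 537, 679 and 582 (limma adjusted p = 0.024). Junb and Map2k3 were called whichever library was left out, Dusp5 in 5 of the 6 such fits, Fosl2 in 4, Ctgf and Dusp1 in 3, and Jun, Cebpb and Spry2 in 2.

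Growth factors and the receptors for cytokines gave few calls. Fgf7, the keratinocyte growth factor that mesenchyme supplies to epithelium, read 0, 0 and 1 untreated and 15, 6 and 10 with LPS, and was called whichever library was left out (limma adjusted p = 0.00074). In the fit of the 6 MyD88ko libraries alone it was not called (limma adjusted p = 0.069), nor was any other of the 25 growth factor genes tested there. Fgf7 was 1 of 31 growth factor genes called higher (3.23%, against 2.58% of all genes). Fgf2 was the 1 called lower (3.23%, against 3.40% of all genes), at 120, 328 and 161 and then 58, 121 and 79, which overlap. Osmr, the receptor of oncostatin M, fell from 133, 210 and 208 to 53, 58 and 62 (log2 -1.63 ± 0.23, limma adjusted p = 0.00031). It was the 1 call among 28 cytokine receptor and SOCS genes (3.57%). Tgfbr1, a TGF-β receptor, fell from 151, 175 and 112 to 53, 64 and 82 (limma adjusted p = 0.023). It was 1 of 2 calls lower among 25 TGF-β genes (8%), and the other was the repressor Tgif1. Among 24 Wnt and BMP genes, 1 was called higher and 1 lower (4.17% each). Bambi, a decoy receptor, read 3, 1 and 2 and then 8, 19 and 10 (limma adjusted p = 0.028), and the Wnt receptor Fzd7 fell from 370, 471 and 251 to 164, 209 and 115 (limma adjusted p = 0.016). Osmr was called whichever library was left out, Bambi and Fzd7 in 3 of the 6 such fits, and Fgf2 and Tgfbr1 in 2.

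A few contractile genes changed, and structural matrix genes were called no more often than all genes. Tagln, the actin-binding protein SM22 of smooth muscle and myofibroblasts, rose from 4587, 6122 and 5090 to 12889, 10802 and 11888 (log2 1.18 ± 0.20, limma adjusted p = 0.0012). Myh11, the smooth muscle myosin heavy chain, read 552, 493 and 832 and then 1175, 1268 and 2007 (log2 1.24 ± 0.29, limma adjusted p = 0.014). Myl6, a light chain found in many cell types, fell from 7327, 7520 and 9193 to 3727, 3428 and 2455 (log2 -1.34 ± 0.20, limma adjusted p = 0.00047). These were the 3 calls among 25 contractile genes (8% higher and 4% lower, against 2.58% and 3.40% of all genes), and with a library left out Tagln and Myl6 kept the call each time and Myh11 in 3 of 6 fits. The summed level of 9 myofibroblast and muscle markers was 43488 to 49775 untreated and 55145 to 64738 with LPS. In bulk samples, more cells of a type and more RNA per cell cannot be told apart. Of 61 structural matrix genes, 0 were higher and 1 was lower (1.64%), the matricellular gene Tnc, which fell from 2264, 3042 and 3125 to 1401, 1364 and 1668 (limma adjusted p = 0.014). The list's median log2 change was 0.27. Among 34 matrix proteases and inhibitors the single call (2.94%) was Plat, tissue plasminogen activator, which fell from 92, 100 and 68 to 39, 39 and 44 (limma adjusted p = 0.015). With a library left out, Tnc was called in 3 of 6 fits and Plat in 4.

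**Figure D3:**
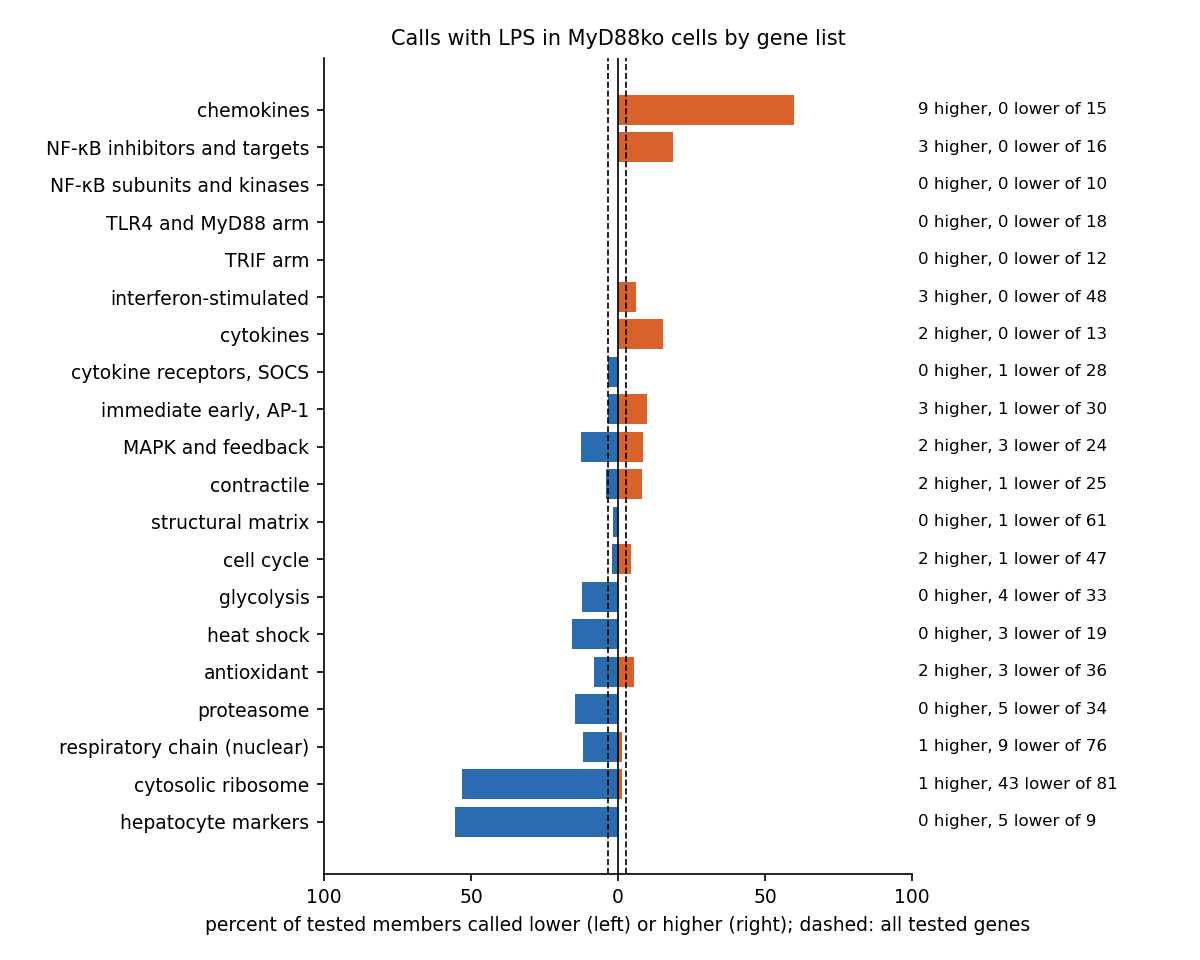
Percent of the tested members of each gene list called higher (right, orange) or lower (left, blue) with LPS in MyD88ko cells, with counts at the right. Dashed lines mark all tested genes (2.58% higher, 3.40% lower), and chemokines stand out to the right and ribosomal and hepatocyte genes to the left.

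Many cytosolic ribosomal protein genes, which encode the protein part of the translation machinery, fell. Of 81 tested, 43 were called lower (53.1%, against 3.40% of all genes), 37 were not called and 1 was higher, and the median log2 change was -0.79. With 1 library left out, 29 to 40 were called lower, and 38 without LPS replicate 3. Rpsa fell from 19255, 20239 and 22319 to 7007, 8336 and 7942 (log2 -1.41 ± 0.19, limma adjusted p = 0.00024), and Rplp0 from 7024, 9276 and 8160 to 2277, 3209 and 3053 (log2 -1.52 ± 0.19, limma adjusted p = 0.00017). Rpl10a fell from 2651, 3386 and 3162 to 730, 801 and 1016 (log2 -1.86 ± 0.20, limma adjusted p = 2.3e-05). The LPS values of these 3 genes lay below a 2-fold drop from the untreated mean in each library. Rps20 went the other way, from 7297, 7902 and 8336 to 12409, 12066 and 12783 (log2 0.66 ± 0.18, limma adjusted p = 0.029), and is named as the single exception after its values were seen. These genes have many near-identical processed pseudogenes, and how the authors' counting split such reads is not given in the sources used here. Pseudogenes were 5.82% of tested genes, 27.2% of those called higher (87 genes) and 9.26% of those called lower (39 genes). Of 54 pseudogenes with a ribosomal name, 13 were higher (24.1%, against 2.58% of all genes) and 7 lower (13.0%, against 3.40%). The part of shared reads in these counts was not tested.

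Some genes of energy metabolism, protein turnover and folding also fell. Of 76 nuclear genes of the respiratory chain, 9 were called lower (11.8%, against 3.40% of all genes) and 1 higher (1.32%, against 2.58%). The count lower was 5 without any 1 of the 3 untreated libraries or LPS replicate 2. Cox5b, a subunit of cytochrome c oxidase, fell from 957, 1071 and 961 to 437, 381 and 463 (log2 -1.22 ± 0.18, limma adjusted p = 0.00047), and Ndufab1, the mitochondrial acyl carrier protein of complex I, from 643, 293 and 404 to 91, 160 and 101 (limma adjusted p = 0.00039). Of 34 proteasome genes, 5 were lower (14.7%) and 0 higher, and 3 were lower without untreated replicate 3. Psme2, a subunit of the 11S activator that interferon-γ is known to induce, fell from 544, 465 and 535 to 282, 229 and 199 (log2 -1.13 ± 0.21, limma adjusted p = 0.0031). Of 33 glycolysis and hypoxia genes, 4 were lower (12.1%) and 0 higher. Among the 4 were Hk2, the first enzyme of glycolysis, from 236, 115 and 114 to 48, 48 and 42 (log2 -1.65 ± 0.32, limma adjusted p = 0.0047), and Pgam1 from 1186, 1417 and 1437 to 608, 515 and 567 (limma adjusted p = 0.00054). Of 19 heat shock genes, 3 were lower (15.8%), a count of 1 without untreated replicates 1 or 3 or without LPS replicates 1 or 2. They were led by the mitochondrial chaperonin Hspe1, from 1128, 764 and 755 to 345, 427 and 392 (log2 -1.16 ± 0.20, limma adjusted p = 0.0015). Of 36 antioxidant genes, 2 were higher (5.56%, against 2.58% of all genes) and 3 lower (8.33%, against 3.40%), with 0 lower without untreated replicate 2 and 1 lower without untreated replicates 1 or 3 or LPS replicate 3. Hmox1, which breaks down heme, rose from 117, 93 and 118 to 286, 262 and 179 (log2 1.12 ± 0.23, limma adjusted p = 0.0061), while the peroxiredoxin Prdx4 fell from 366, 679 and 465 to 194, 236 and 256 (limma adjusted p = 0.0073). Of 47 cell cycle genes, the inhibitors Cdkn1a and Cdkn2a were higher (4.26%) and Mcm6, a replication helicase subunit, was lower (2.13%), shares near those of all genes. Cdkn1a, which encodes p21, read 1243, 1494 and 1423 and then 1994, 2637 and 4661 (log2 1.07 ± 0.24, limma adjusted p = 0.012). Of 30 unfolded protein response genes, 0 were called. Cox5b, Ndufab1, Psme2, Hk2, Pgam1, Hspe1 and Hmox1 were called whichever library was left out, Cdkn1a and Prdx4 in 5 of 6 such fits, Cdkn2a and Mcm6 in 3, the heat shock gene Hsph1 in 2 and Hspb1 in 1.

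**Figure D4:**
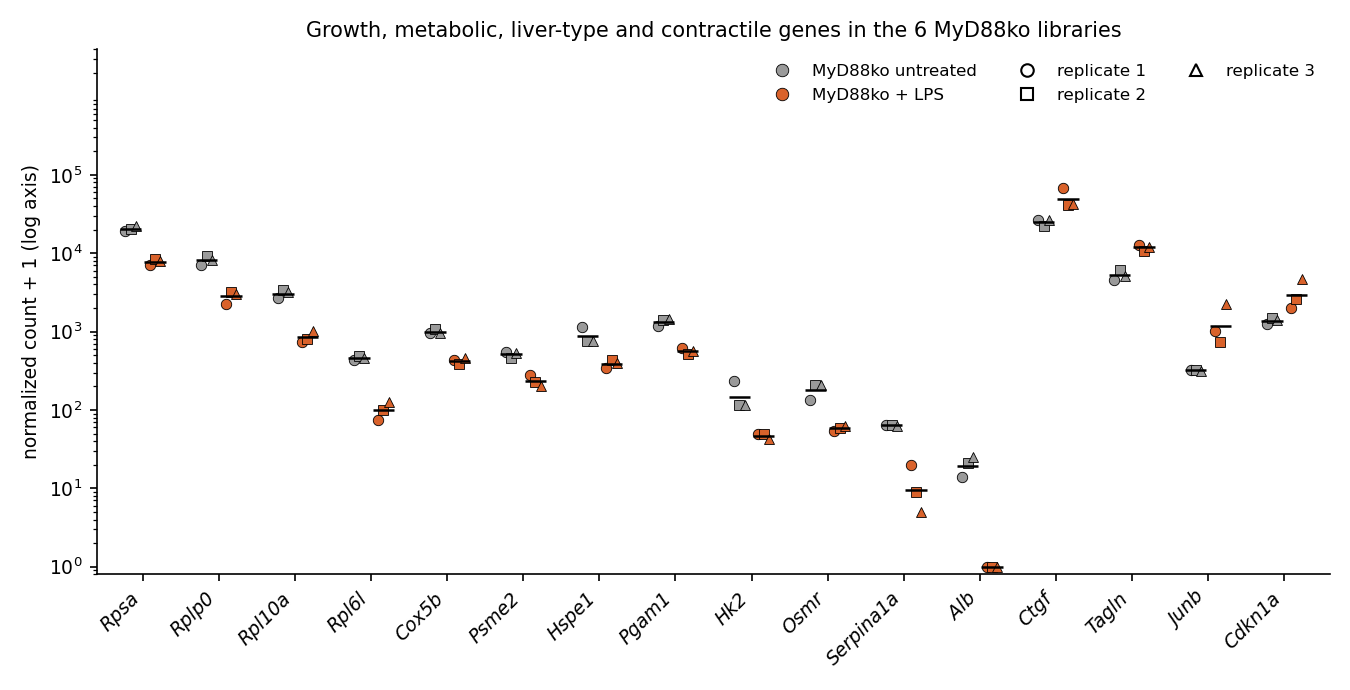
Normalized count + 1 (log axis) in the 6 MyD88ko libraries for ribosomal, metabolic, liver-type and contractile genes, with grey untreated, orange LPS, a shape per replicate and a bar at each group's geometric mean. The LPS libraries lie below the untreated ones from Rpsa to Alb and above them from Ctgf to Cdkn1a.

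Markers of another cell type moved with treatment. Of 20 hepatocyte genes, 12 were listed and 9 tested. Of these 9, 5 were called lower (55.6%, against 3.40% of all genes) and 0 higher (against 2.58%). With LPS replicate 3 left out, the count lower was 4. The list's summed level was 350, 392 and 449 untreated and 155, 104 and 51 with LPS. Alb, serum albumin, read 13, 20 and 24 untreated and was listed at 0 in the 3 LPS libraries, and Serpina3k, a liver serine protease inhibitor, read 35, 59 and 85 and was then listed at 0. Serpina1a, an α1-antitrypsin gene, fell from 64, 64 and 61 to 19, 8 and 4 (log2 -2.73 ± 0.51, limma adjusted p = 0.0033). The Serpina1 genes are close copies, so reads may be shared among them. The wt libraries showed the same split, with Alb at 21, 6 and 20 untreated and listed at 0 in the 3 wt LPS libraries. The list split by treatment in both genotypes, as the library codes do, and its part in other results was not tested. Glial and neuronal markers summed to 451 to 736 untreated and 1036 to 1744 with LPS, through Tubb3 and Uchl1, while Sox10, a defining glial gene, read 2, 7 and 10 and then 15, 11 and 0. The part of these markers in other results was not tested.

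The next question was where the LPS effect in MyD88ko cells differed from that in wt cells. The difference of both effects was called for 2 of 12385 genes, 0.0161%, with 1137 at an unadjusted p under 0.05. The count was 44 without untreated wt replicate 2 and 17 without untreated wt replicate 3, 1 without untreated wt replicate 1, and 0 without any 1 of 7 other libraries, which were the untreated MyD88ko libraries, MyD88ko LPS replicates 1 and 3 and wt LPS replicates 1 and 2. Epithelial markers stood high in untreated wt replicates 1 and 3, while untreated wt replicate 2 lay below each wt LPS library. They summed to 1383, 37 and 1251 in the untreated wt libraries and to 49, 62 and 50 with LPS, with the transcription factor gene Gata3 at 957, 23 and 258 and then 3, 2 and 3. Their part in the wt effects and in the differences was not tested. Ackr4, an atypical receptor that scavenges CCL19 and CCL21, read 743, 932 and 1003 untreated and 523, 890 and 629 with LPS in MyD88ko cells, which overlap, and fell in wt cells from 698, 1441 and 950 to 117, 153 and 196. The difference was 2.27 on the log2 scale (95% interval 1.48 to 3.06, limma adjusted p = 0.047). Selenom, a selenoprotein of the endoplasmic reticulum, read 674, 774 and 841 and then 976, 1389 and 904 in MyD88ko cells, and rose in wt cells from 298, 280 and 305 to 1581, 1248 and 1405. The difference was -1.76 (95% interval -2.35 to -1.16, limma adjusted p = 0.047). Of the 12 fits that left out a library, Ackr4 was called in 4 and Selenom in 3. In LPS-treated wt cells 1183 genes were called higher (9.55%) and 1197 lower (9.66%), and a gene called in 1 genotype and not in the other is not thereby shown to differ.

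For the chemokines the difference did not pass, and its intervals were wide. The effect on Cxcl5 was 5.16 in MyD88ko and 4.19 in wt cells, a difference of 0.97 with a 95% interval from -0.32 to 2.27. For Cxcl1 the difference was 1.55 (-0.14 to 3.24), for Ccl2 0.30 (-0.94 to 1.54) and for Cxcl10 0.36 (-1.16 to 1.87). The levels were not tested between genotypes. Cxcl5 with LPS reached 192 to 354 in MyD88ko cells, against 4193 to 6439 in wt cells with LPS and 155 to 464 in untreated wt cells. Ccl2 reached 636 to 1046 in MyD88ko cells, against 4204 to 5022 in wt cells with LPS. The effect on Nfkbia was 1.13 in MyD88ko and 2.62 in wt cells, a difference of -1.48 (-2.19 to -0.78) that was not called after adjustment (limma adjusted p = 0.21). For Il6 the difference was -2.32 (-4.08 to -0.56, limma adjusted p = 0.39), where wt cells read 8, 5 and 15 untreated and 50, 54 and 77 with LPS. For Cebpd, a partner of Cebpb, it was -1.32 (-2.20 to -0.44, limma adjusted p = 0.36). Of the lists, the 48 interferon-stimulated genes had a median log2 effect of 0.24 in MyD88ko and 0.72 in wt cells. Of these, 3 and 16 were called higher and 0 and 2 lower. The 15 chemokines had medians of 1.71 and 2.02, with 9 called higher in each and 0 and 1 lower. The 81 ribosomal genes had medians of -0.79 and -0.78, with 43 and 50 called lower. Of all tested genes, 2.58% were called higher and 3.40% lower in MyD88ko cells, against 9.55% and 9.66% in wt cells. No list was tested for a difference between genotypes.

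**Figure D5:**
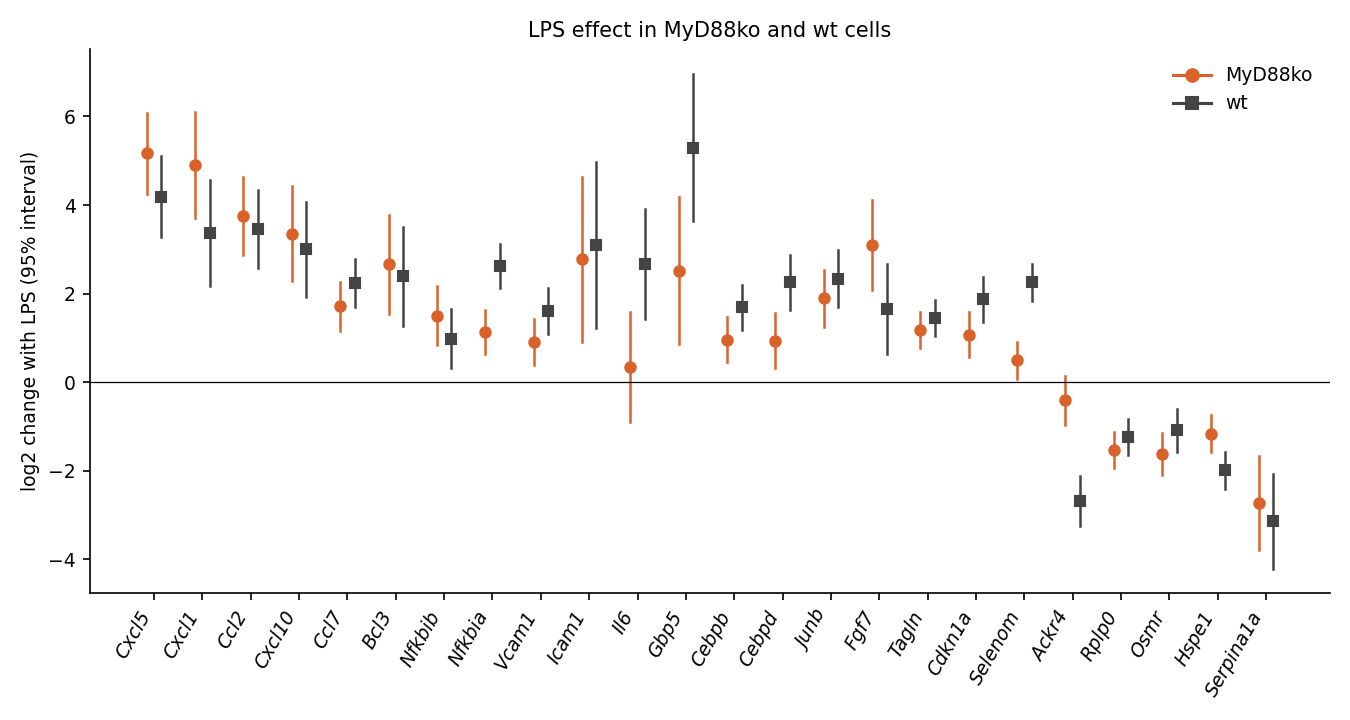
Log2 change with LPS in MyD88ko cells (orange circles) and wt cells (black squares) for 24 genes, with lines for 95% intervals from the fit over 12 libraries. The intervals of Nfkbia, Cebpd, Selenom and Ackr4 do not overlap between genotypes, while those of the 5 chemokines, Tagln and Rplp0 do.

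Further protein-coding genes met the rule for the largest changes without belonging to a list described above. Serpina3g, a protease inhibitor of activated leukocytes and macrophages, read 6, 0 and 5 untreated and 15, 24 and 37 with LPS (limma adjusted p = 0.0069). Arhgef1, an exchange factor for RhoA, rose from 30, 37 and 34 to 146, 132 and 220 (log2 2.24 ± 0.30, limma adjusted p = 0.00028), and Ino80b, a subunit of a chromatin remodeller, from 18, 17 and 9 to 35, 82 and 78 (limma adjusted p = 0.0054). Both also rose in wt cells, with Arhgef1 at 26, 31 and 20 and then 94, 145 and 91. Edc4, a scaffold of mRNA decapping, fell from 459, 606 and 682 to 130, 193 and 134 (log2 -1.93 ± 0.32, limma adjusted p = 0.0013). Rab8b, a small GTPase of membrane traffic, fell from 261, 293 and 250 to 110, 73 and 43 (limma adjusted p = 0.00047), and Taf9, a subunit of the general transcription factor TFIID, from 2564, 1433 and 1262 to 441, 431 and 513 (limma adjusted p = 0.00029). Pdcd5 fell from 518, 388 and 442 to 143, 141 and 86 (limma adjusted p = 0.00017). Each of these 7 genes was called whichever library was left out, as were 18 in all of the 30 genes that the rule for the highest and lowest changes named. Of the other 12 genes, 4 were called in 3 to 5 of the 6 fits and 8 in 0 to 2, among them Il10 and Sez6 in 0 and Sgcd, Iqgap3, Urb1 and Tmprss13 in 1. The rule for these 30 genes required that the groups not overlap, which held for 12.2% of all tested genes upward and 13.3% downward.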

How the data were processed

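The series holds 12 libraries of 3′ mRNA (QuantSeq) read on an Ion Proton, per the labels' protocols. Per the submitters' processing notes, the build was mm10 and the tools included DESeq, Bowtie2 and TopHat2, with no versions. The deposited tables hold the authors' expression score per gene and sample, a normalized count rounded to whole numbers, over which 0 of 166719 values shared by a pair of tables differed. They also hold the authors' deposited p-values and a deposited fraction per gene, its GC content. In the authors' deposited table for LPS against untreated MyD88ko, 14033 genes are listed and 106 have an adjusted p under 0.05 (58 higher, 48 lower).

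limma 3.58.1 (R 4.3.3) was run with trend and robust options on log2(value + 1), using 1 model of the 12 libraries in which each of 4 groups had its own coefficient, with residual degrees of freedom of 8. The 12385 genes tested had a value in each library and reached a mean of 10 in some group. Calls were two-sided at a false discovery rate (Benjamini-Hochberg) below 0.05 across those genes. A change is on the log2(value + 1) scale, which understates the change of low genes, and no fold is given for a gene listed at 0 throughout a group. On simulated data with the real means, 22 of 100 genes changed by 1 on the log2 scale were recovered, 78 of 100 changed by 2, and 5 others were called falsely, over 12385 genes. Depths were estimated from the whole numbers that scaling and rounding skip or fill more often.

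The comparison, gene lists and rules were chosen with earlier results of these data known. Named genes were the 15 highest and 15 lowest protein-coding calls whose groups did not overlap and whose higher group averaged 20 or more (no predicted or duplicated symbols), from which some are described, up to 4 members of each list with the smallest p, up to 5 calls of the difference, and Myd88, Ticam1, Tlr4, Cd14, Il6, Nfkbia, Cxcl5, Cxcl1, Ccl2, Cxcl10 and Ptgs2. Genes that complete a count of calls, or that are said to be so, were named after their values were seen. Lists are described by counts and medians, with no test.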

Additional observations from a re-analysis of the deposited data

Results flagged for a closer look

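The LPS effect differed between genotypes by a test of the difference itself for 2 genes, Ackr4, by 2.27 (MyD88ko minus wt, log2), and Selenom, by -1.76, both at a limma adjusted p of 0.047. Ackr4 fell in all 3 wt LPS libraries relative to each untreated one, while its MyD88ko groups overlap. Selenom stood higher in untreated MyD88ko cells (674 to 841) than in untreated wt cells (280 to 305). Both calls were lost under several of the alternatives tried.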

How the results depend on the processing

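The count of genes that LPS changed in MyD88ko cells, 741, stayed between 494 (a fold of at least 2) and 763 under the alternatives other than limma without the trend, which gave 425 (175 higher, 250 lower), and leaving out libraries, which gave 337 to 652. The rescaled fit gave 739, quantile normalization 687, voom weights 658, and the fit of the 6 MyD88ko libraries alone 643. In wt cells 2380 genes were called, 1571 with a fold of at least 2 and 1570 to 1947 with a library left out, the fewest without wt LPS replicate 1. The difference of both effects gave 2 genes. It gave 4 with quantile normalization and 0 with the GC correction alone, limma without the trend, a mean of at least 50 and a pseudocount of 0.5. With a library left out it gave 0 to 44, the most without untreated wt replicate 2 and 17 without untreated wt replicate 3. The cause of these moves was not tested. Same-numbered untreated and LPS MyD88ko libraries deviated together at r = 0.125, 0.037 and -0.050, against -0.163 to 0.111 for unlike numbers. With so few libraries these values cannot settle whether the numbers pair them, and the labels do not say. The fit with a replicate block called 763 genes (340 higher, 423 lower), 751 with the GC correction, and 2389 in wt cells. For the difference the block gave 2 genes, both higher, with or without the GC correction; Ackr4 was called (limma adjusted p = 0.0089 and 0.0080) and Selenom was not (0.074 and 0.056). For 180 named genes, 0 changed direction where the gene was called in the main fit or in the alternative. Changes of direction in a gene called in neither were not counted. Of their values under the alternatives, 3060 stayed on their side of the threshold, 265 lost the call and 36 gained it. Depth limits genes with values near 10 or below, where a read or a few decide the level.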

Other observations

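Genes that set LPS replicate 3 of the MyD88ko cells apart are given as values, chosen after they were seen. The untreated, then LPS values were 2, 16 and 10, then 1, 8 and 326 for the complement gene C3. Tnip1, a partner of the NF-κB inhibitor A20, read 143, 81 and 120, then 188, 185 and 1081. Crlf2, the receptor chain of the cytokine TSLP, read 228, 259 and 270, then 290, 402 and 2042. Srm, spermidine synthase, read 159, 167 and 173, then 269, 251 and 1794. Adm, the vasodilator adrenomedullin, read 1605, 1609 and 1289, then 2378, 1568 and 357, so that replicate 3 was the lowest of the 6. None of these 5 genes was called in MyD88ko cells.

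Pseudogenes with a predicted name also held large changes, and the genes here were chosen after their values were seen. Gm5611 rose from 305, 249 and 337 to 2098, 1418 and 1330 (limma adjusted p = 2.3e-05), and Gm6987 from 4, 6 and 2 to 49, 41 and 82 (limma adjusted p = 0.00033). Gm11824 fell from 97, 80 and 91 to 7, 11 and 23 (limma adjusted p = 0.00043). Reads of a pseudogene and of its parent gene may not be told apart in such counts.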
